A study of Rattus norvegicus with 56 samples.

Results

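The comparison described here is that of chronic L-dopa with saline in lesioned rats that never received pramipexole. It holds 14 of the 56 male Sprague Dawley rats (Crl:OFA) of the study, 1 array of dorsal striatum each: 7 rats labelled lesioned, L-dopa and saline conditioning (numbers 8 to 14) and 7 labelled lesioned, saline and saline conditioning (numbers 22 to 28). All 14 were labelled as carrying a bilateral nigral lesion, made with an AAV vector that overexpresses alpha-synuclein, and no sham-operated rat is part of this comparison. From 5 weeks after surgery the L-dopa rats were given L-dopa methyl ester at 50 mg/kg under the skin daily for 3 weeks, together with benserazide, and the control rats were given saline. Both groups then went through place conditioning with saline in every session, and tissue was taken 24 to 48 hours after the last conditioning dose. Conditioning followed the 3 weeks of treatment, and whether L-dopa went on during it is not given in the sources used here. The ages of the rats and the extent of the lesion in each rat are likewise not given.

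L-dopa is the precursor of dopamine. It is carried across the blood-brain barrier by the large neutral amino acid transporters and decarboxylated in the brain, while benserazide blocks that step elsewhere. In the striatum, dopamine acts on spiny projection neurons of 2 types, which carry D1 receptors with the peptides substance P and dynorphin, or D2 receptors with enkephalin. Repeated L-dopa in animals without dopamine terminals is known for inducing immediate early genes such as Fosb, for raising Pdyn in D1 neurons and for activating ERK in these cells.

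Values are log2 signals of Affymetrix probe sets, and differences are L-dopa minus saline on that scale, with their standard error (SE). Where 3 values are given for a group, they are its lowest, median and highest rat. Calls were made where limma gave an adjusted p under 0.05 (Benjamini-Hochberg, over 18434 probe sets). The array's annotation pairs no genome build with these probe sets, so genes are named by symbol without positions. With 7 rats per group, the number of arrays limits the precision, and the median SE of a difference was 0.09. In whole tissue, fewer cells of a type and less RNA per cell cannot be told apart.

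The tissue carried the markers of dorsal striatum in both groups. Drd1 averaged 10.70 ± 0.29 in L-dopa rats and 10.88 ± 0.29 in saline rats (SD, n = 7 each), above 98.3% of all probe sets, and Penk averaged 12.17 ± 0.16 and 12.27 ± 0.19. The dopamine terminal genes Th, Slc6a3 and Slc18a2 had means between 4.03 and 4.77 in both groups and were too dim to be tested. Correlations between the 14 arrays across probe sets were 0.969 to 0.987, and array medians lay between 5.62 and 5.77.

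A measure of RNA integrity and labelling differed between the groups. It is the 3′ minus 5′ signal of the array's own rat Gapdh and beta-actin control probe sets, which grows when labelled RNA is shorter at its 5′ end. It was 0.97, 1.11 and 1.25 in L-dopa rats, against 0.68, 0.90 and 0.98 in saline rats. The difference was 0.24 (exact two-sided permutation p = 0.0012 over 3432 splits), and 6 of 7 L-dopa rats lay above the highest saline rat. For Gapdh alone no rats overlapped (difference 0.11, exact permutation p = 0.0006), and for beta-actin alone the difference was 0.37 (exact permutation p = 0.0012). The beta-actin 5′ probe set was lower by 0.42 in L-dopa rats, while its 3′ probe set differed by -0.05. The saline rats had the lowest mean of the study's 8 groups, 0.87 ± 0.10, and the L-dopa rats the highest, 1.11 ± 0.09 (SD, n = 7 each); the other groups averaged 0.96 to 1.08. Most counts, list medians and single genes below are given with and without this signal as a covariate. Where the covariate is not named, values are without it.

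**Figure D1:**
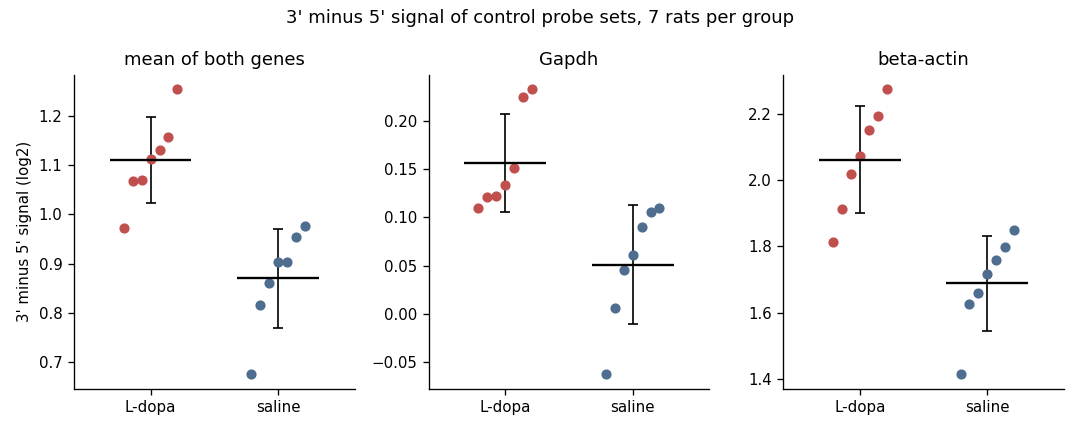
The 3′ minus 5′ signal (log2) of each rat is plotted for the mean of both control genes, for Gapdh and for beta-actin, with L-dopa rats left of saline rats; horizontal lines are means and bars are SDs of 7 rats. The L-dopa rats lie at 0.97 to 1.25 and the saline rats at 0.68 to 0.98 in the left panel, and for Gapdh the groups do not overlap.

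The makeup of the dissected tissue also varied between rats. The mean signal over 19 genes typical of cerebral cortex was 7.93, 8.29 and 8.81 in L-dopa rats, against 7.23, 8.09 and 8.87 in saline rats. Its highest value of all was that of saline rat 22, and its 3 lowest were those of saline rats 23, 27 and 28. The mean over 24 genes shared by both types of spiny neurons ran from 9.58 to 10.05 in L-dopa rats and from 9.49 to 10.20 in saline rats, and rat 22 was again at the edge, as the lowest of all 14. Rat 22 thus stands apart from the 6 other saline rats, with high cortical and low spiny neuron signals. Among L-dopa rats, rat 9 had a similar profile, the highest of its group for cortex (8.81) and the lowest for the 24 spiny neuron genes (9.58). The counts, list medians and genes that the omission of rat 22 moved most are also given without rat 22. That omission leaves rat 9 in the L-dopa group.

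**Figure D2:**
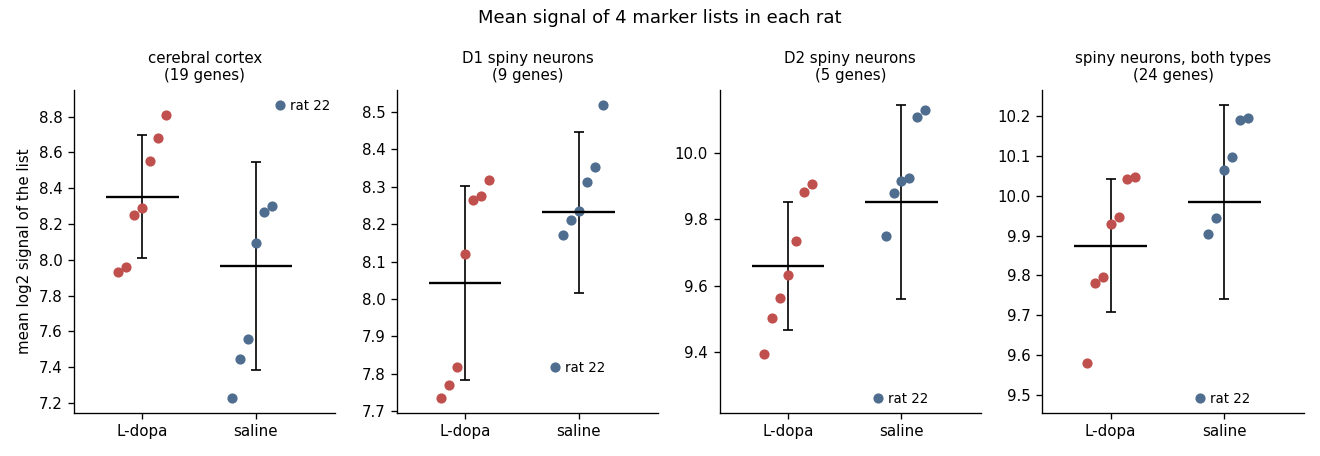
Each point is the mean log2 signal of a marker list in 1 rat, for cerebral cortex (19 genes), D1 spiny neurons (9), D2 spiny neurons (5) and genes of both spiny types (24), with L-dopa rats left of saline rats; lines are means and bars SDs of 7 rats. Saline rat 22 is the highest point of its group for cortex, at 8.87, and the lowest of its group in the 3 spiny neuron panels.

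Across the array, 3 of 18434 probe sets (0.0163%) were called, 2 higher (0.0108%) and 1 lower (0.00542%) in L-dopa rats. An unadjusted p under 0.05 was reached by 2381 probe sets (12.9%), of which 1329 were higher (7.21%) and 1052 lower (5.71%). Differences were small: the median size was 0.08, 135 probe sets passed 0.5 and 4 passed 1. With the 3′ minus 5′ signal as covariate, 1 probe set was called (0.00542%) and 1108 had an unadjusted p under 0.05 (6.01%), 569 of them higher (3.09%) and 539 lower (2.92%). Of the 2381, 449 also had an unadjusted p under 0.05 with the covariate, and 215 turned their sign. The covariate's own slope was called for 3492 probe sets (18.9%), over all 56 rats.

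The called gene is Peli2, which fell with L-dopa. It encodes a Pellino E3 ubiquitin ligase, which modifies IRAK kinases downstream of Toll-like and interleukin-1 receptors. Its called probe set (1390942_at) was 5.48, 5.67 and 5.80 in L-dopa rats, against 5.90, 6.13 and 6.31 in saline rats. No rats overlapped. The difference was -0.46 ± 0.09 (SE), with a limma adjusted p of 0.032, and 7 of 7 L-dopa rats lay below the saline mean. With the covariate it was -0.56 ± 0.10 (limma adjusted p = 0.0146), the single call of that fit. The call was lost without the filter on dim probe sets (adjusted p = 0.067), in a fit of the 14 rats alone (0.066) and with the cortex list as covariate (0.0764), all by limma. In the covariate fit it was lost with 28 or 14 rats in the fit, with beta-actin alone as the covariate and without rat 14 or 23. Without the covariate it also did not hold without rat 8, 13, 23, 24, 25, 27 or 28 (limma adjusted p of 0.0541 to 0.0748 without one of them), while the size stayed between -0.50 and -0.43 when any 1 rat was left out.

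The other probe sets of Peli2 moved less or could not be tested. The brighter one (1389592_at) was 7.01, 7.07 and 7.36 in L-dopa rats, against 7.02, 7.32 and 7.69 in saline rats. These ranges overlap, and its difference of -0.18 ± 0.07 did not pass (limma adjusted p = 0.256). Another, with a mean of 1.31, was below the filter. The relatives Peli1, at 0.03 ± 0.09, and Peli3, at 0.06 ± 0.13, did not pass either, and their signs turned under some settings.

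Among the 8 groups of the study, the called Peli2 probe set was lowest in the L-dopa rats described here, at 5.67 ± 0.11, and highest in their saline controls, at 6.13 ± 0.13 (SD, n = 7 each). The other 6 groups averaged 5.77 to 5.96. Lesioned rats conditioned with pramipexole, the other animals in which L-dopa was tested after a lesion, averaged 5.96 ± 0.18 with L-dopa and 5.88 ± 0.13 with saline, a difference of 0.08. The difference between the conditionings had an unadjusted p of 4.65e-05, but over all probe sets its adjusted p was 0.327 or higher by limma, so it was not called.

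**Figure D3:**
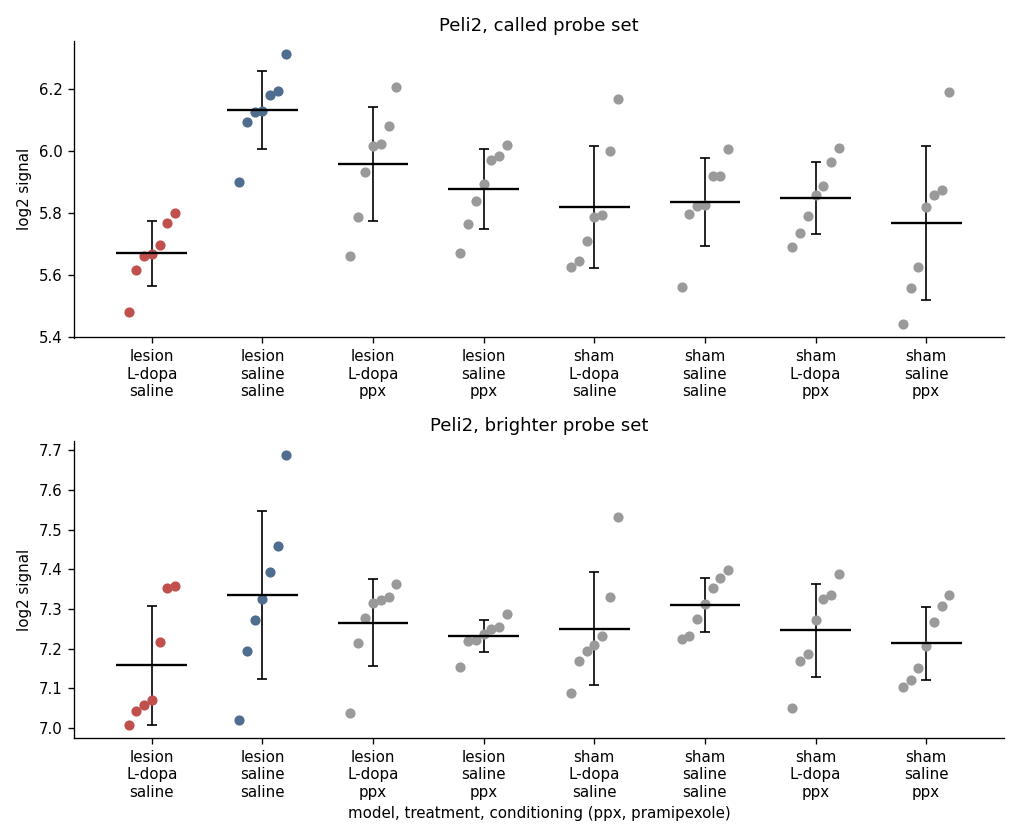
Log2 signal of the called Peli2 probe set (top) and the brighter one (bottom) in all 56 rats, by group, with L-dopa groups left of their saline controls; ppx is pramipexole, lines are means and bars SDs of 7 rats. In the top panel the lesioned L-dopa rats conditioned with saline lie at 5.48 to 5.80 and their saline controls at 5.90 to 6.31; in the bottom panel the same groups overlap.

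Of 23 tested genes of Pellino and Toll/IL-1 receptor signalling, 0 were called at their brightest probe set, 13 were higher and 10 lower, with a median of 0.04 against 0.01 over all probe sets. Irak1, the kinase that Pellino proteins modify, had 0.15 ± 0.06 (limma adjusted p = 0.239). Ikbkb, a kinase of the NF-kappa-B pathway, had 0.25 ± 0.11 and the adaptor gene Traf3 0.27 ± 0.12. With the covariate these were 0.03, 0.13 and 0.02, and the list's median was -0.02.

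The 2 called probe sets that were higher carry no gene symbol, and they are given here by their identifiers after their values were seen. 1374870_at was 6.65, 6.93 and 7.03 in L-dopa rats, against 5.39, 6.35 and 6.54 in saline rats. It rose by 0.80 ± 0.15 (limma adjusted p = 0.032), with means of 6.85 ± 0.16 in L-dopa rats and 6.05 ± 0.48 in saline rats (SD, n = 7 each), the highest and the lowest of the 8 groups. The other 6 averaged 6.51 to 6.74. 1371366_at was 8.37, 8.54 and 8.62 in L-dopa rats, against 8.08, 8.23 and 8.27 in saline rats, and rose by 0.34 ± 0.07 (limma adjusted p = 0.032). Its saline rats had the lowest mean of the 8 groups, 8.185, but its L-dopa rats, at 8.524, not the highest. Lesioned rats conditioned with pramipexole averaged 8.535 with L-dopa and 8.264 with saline. For 1374870_at these rats averaged 6.514 and 6.601, the opposite direction. With the covariate 1374870_at and 1371366_at had 0.72 and 0.27 and were not called. When 1 rat was left out, the first was called in 7 of 14 fits (0.69 to 0.88) and the second in 4 of 14 (0.32 to 0.37), and rats 8, 11, 13, 24, 25 and 27 were those whose omission ended both calls.

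Leaving out rat 22 raised the number of calls more than any other omission. Without it 78 probe sets were called (0.423%), 62 higher and 16 lower, including the 3 called with all rats. All 78 had the same sign with all 14 rats, which their choice by p in all but 1 of the same rats makes likely beforehand. They included Neurod2, a transcription factor gene of cortical excitatory neurons, with 1.07 ± 0.24, and the postsynaptic scaffold genes Shank1, with 0.71 ± 0.18, and Shank2, with 0.36 ± 0.08 (limma adjusted p of 0.0381, 0.0474 and 0.0389). With the covariate as well, 1 of them was called, and 63 of the 78 kept an unadjusted p under 0.05. Leaving out any other rat gave 0 to 7 calls.

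None of the genes described from here on was called with all 14 rats except Peli2. They are given by rank or by list, with values rather than as changes. The 12 named genes of smallest p with a higher signal in L-dopa rats had differences of 0.19 to 0.70 and limma adjusted p of 0.0645 to 0.115. All 12 were smaller with the covariate, at 0.14 to 0.63, and kept their sign. All 12 were also called without rat 22. The rank selects large values, so these counts describe the genes and are no support for them.

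Deaf1, a transcription factor gene, had the smallest p among them. It was 6.51, 6.92 and 6.96 in L-dopa rats, against 6.45, 6.53 and 6.60 in saline rats. Only the lowest L-dopa rat, rat 12, lay within the saline range, and the difference was 0.32 ± 0.07 (0.29 with the covariate). Rapgefl1, related to exchange factors of Rap GTPases, was 8.11, 8.29 and 8.43 in L-dopa rats, against 7.48, 7.65 and 8.09 in saline rats. Its groups did not overlap, and the difference of 0.56 ± 0.12 became 0.38 with the covariate. Csnk2a2, a catalytic subunit of casein kinase 2, was 7.40, 7.46 and 7.66 in L-dopa rats, against 6.91, 7.18 and 7.24 in saline rats. All 4 of its tested probe sets were higher, by 0.15 to 0.36, and the largest of these differences was 0.20 with the covariate.

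Several genes in this rank serve the cytoskeleton, transport and translation. Tubb3, the neuronal beta-tubulin, was 9.14, 9.31 and 9.44 in L-dopa rats, against 8.99, 9.04 and 9.21 in saline rats, a difference of 0.24 ± 0.05 (0.20 with the covariate). Kifc2, a kinesin motor, was 8.86, 8.98 and 9.28 in L-dopa rats and 8.49, 8.71 and 8.75 in saline rats. Its groups did not overlap, and its difference of 0.37 ± 0.09 was 0.15 with the covariate. Eif4g1, the scaffold of translation initiation, had 0.27 ± 0.06 (0.15 with the covariate), and its other tested probe sets had 0.02 and 0.15. Arfgap1, which switches off Arf GTPases at the Golgi, had 0.32 ± 0.07, against -0.01 and 0.14 at its other probe sets, and 0.29 with the covariate.

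The remaining higher genes of the rank were Gpr61, an orphan receptor (0.45 ± 0.10), Retreg2, an endoplasmic reticulum protein (0.19 ± 0.04), the zinc finger gene Znf865 (0.41 ± 0.09), Shank2 (0.35 ± 0.08) and Slc20a2, a phosphate transporter (0.70 ± 0.17). Other tested probe sets did not follow for 3 of them. They had -0.08 for Gpr61, -0.20 for Znf865 and 0.00 for Slc20a2. With the covariate Gpr61 had 0.42, Retreg2 0.14, Znf865 0.26, Shank2 0.18 and Slc20a2 0.63, all at the probe sets of the rank. Slc20a2 was 4.89, 5.74 and 5.99 in L-dopa rats, against 4.24, 4.93 and 5.30 in saline rats, with rat 13 below the other 6 L-dopa rats.

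The 12 genes of smallest p with a lower signal had differences of -0.60 to -0.25 and limma adjusted p of 0.032, for Peli2, to 0.122. Of these, 11 were smaller with the covariate and Peli2 was larger. Without rat 22, 6 of the 12 were called.

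Genes of mitochondria stand among them. Hspa9, the mitochondrial chaperone mortalin, was 9.30, 9.39 and 9.44 in L-dopa rats, against 9.46, 9.67 and 9.73 in saline rats, with no overlap. Its difference was -0.26 ± 0.06, and -0.15 with the covariate; of its other tested probe sets 1 had -0.28 and a dimmer one 0.84 (limma adjusted p = 0.245). Sdhaf3, an assembly factor of succinate dehydrogenase, was 7.37, 7.48 and 7.56 in L-dopa rats, against 7.61, 7.75 and 7.83 in saline rats. These also did not overlap, with a difference of -0.25 ± 0.06 (-0.15 with the covariate). Vdac1, the channel of the outer membrane, had -0.32 ± 0.08, but -0.06 with the covariate and -0.08 at its brighter probe set.

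Genes of lipid synthesis and the secretory pathway form another part of this rank. Insig2, which holds the sterol sensor of SREBP in the endoplasmic reticulum, was 6.18, 6.43 and 6.68 in L-dopa rats, against 6.79, 6.85 and 7.12 in saline rats. The groups did not overlap and the difference was -0.42 ± 0.09, but it was -0.15 with the covariate and -0.11 at the brighter probe set. Elovl5, an elongase of polyunsaturated fatty acids, was 5.18, 5.80 and 6.14 in L-dopa rats and 6.33, 6.38 and 6.52 in saline rats, again without overlap. Its difference was -0.60 ± 0.14 there (-0.39 with the covariate) and -0.16 at a brighter probe set. Srprb, a subunit of the signal recognition particle receptor, had -0.25 ± 0.06 and the Golgi GTPase gene Arf1 -0.26 ± 0.07. With the covariate they had -0.09 and -0.05. Brighter probe sets of Srprb and Arf1 had -0.08 and -0.10 without it, and a dimmer one of Srprb 0.19.

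The last genes of the lower rank given here serve signalling and GABA breakdown. Ppp3cb, a catalytic subunit of calcineurin, was 7.40, 7.51 and 7.60 in L-dopa rats, against 7.69, 7.79 and 7.94 in saline rats. Those ranges do not overlap (-0.32 ± 0.08), yet 2 brighter probe sets of Ppp3cb had 0.04 and 0.08. Abat, which breaks down GABA, had -0.43 ± 0.11, against -0.03 and 0.19 at its other probe sets. Pik3r1, the regulatory subunit of PI3 kinase, had -0.36 ± 0.09. With the covariate Ppp3cb, Abat and Pik3r1 had -0.18, -0.21 and -0.22.

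Between the groups, 58 probe sets did not overlap at all (0.315%), 31 higher (0.168%) and 27 lower (0.146%) in L-dopa rats. Besides those already given, the largest with a single symbol were Grina, Adgrb2, Elfn2 and Mgll on the higher side and Plpbp, Zfp518a, Taf1b and Nt5c2 on the lower side. Mgll, which degrades the endocannabinoid 2-arachidonoylglycerol, was 8.27, 8.35 and 8.85 in L-dopa rats, against 7.90, 8.11 and 8.24 in saline rats. Its difference was 0.33 ± 0.10, and its other tested probe sets had 0.04 to 0.32. Grina, a membrane protein named for its link to glutamate receptors, had 0.40 ± 0.10, the brain adhesion receptor gene Adgrb2 0.34 ± 0.08 and Elfn2 0.34 ± 0.12. Brighter probe sets of Elfn2 had 0.20 and 0.16. On the lower side, Plpbp, a pyridoxal phosphate-binding protein, had -0.48 ± 0.13, and -0.12 at a brighter probe set. The zinc finger gene Zfp518a had -0.34 ± 0.12, Taf1b, a factor of RNA polymerase I, -0.28 ± 0.09 and the nucleotidase gene Nt5c2 -0.26 ± 0.08. With the covariate Grina, Adgrb2, Elfn2 and Mgll had 0.15, 0.11, 0.20 and 0.14, and Plpbp, Zfp518a, Taf1b and Nt5c2 had -0.18, -0.34, -0.22 and -0.18. In that fit 31 of the 31 higher and 26 of the 27 lower probe sets kept their sign, and their medians were 0.14 and -0.13, against 0.28 and -0.25 without it. The lack of overlap selects clear differences in the same rats, so the kept signs describe these probe sets and are no support for them.

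The covariate changed which genes ranked first. With it, the 6 higher genes of smallest p were Mad2l1, a spindle checkpoint gene (0.63 ± 0.16), the chromatin remodelling gene Bptf (0.25 ± 0.06), the kinase gene Dapk1 (0.24 ± 0.06), Kbtbd3 (0.71 ± 0.19), Kiaa1328 (0.44 ± 0.12) and Deaf1 (0.29 ± 0.08). Without the covariate the first 5 had 0.26, 0.11, 0.13, 0.36 and 0.35. The 6 lower genes were Peli2, then Hexim2, an inhibitor of P-TEFb (-0.47 ± 0.11), Khdc4 (-0.26 ± 0.06), Sipa1l1, a Rap GTPase activator of the synapse (-0.43 ± 0.10), the calcium sensor gene Ncs1 (-0.81 ± 0.22) and Spsb3 (-0.18 ± 0.05). Of all these only Peli2 passed in that fit. Brighter probe sets of Ncs1 and Bptf had 0.27 and -0.01 without the covariate, and dimmer ones of Dapk1 and Kbtbd3 -0.01 and -0.02. Deaf1 and Peli2 were the only genes among the first of both fits.

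**Figure D4:**
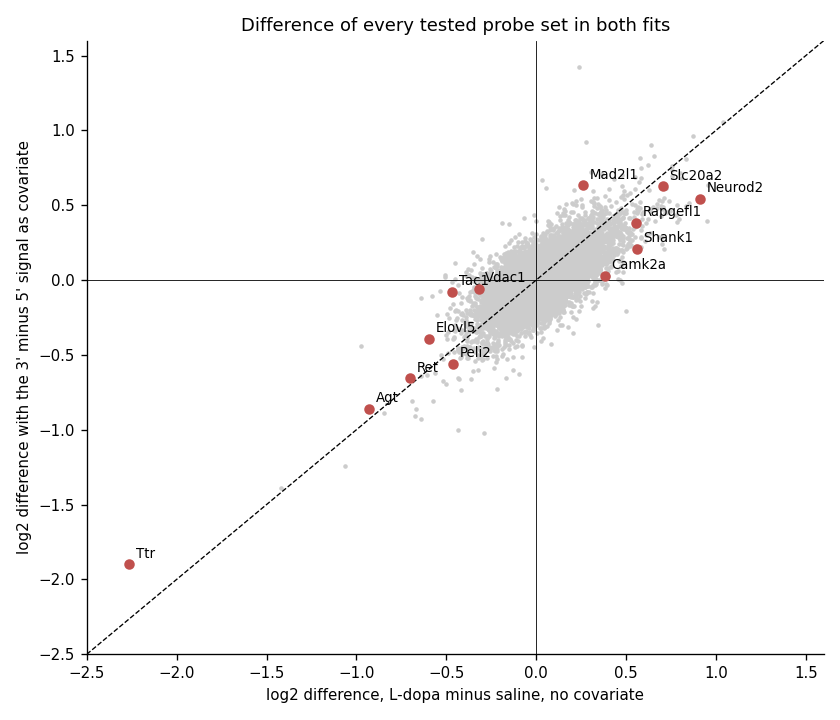
Each grey point is 1 of 18434 probe sets, with its log2 difference (L-dopa minus saline) without a covariate on the horizontal axis and with the 3′ minus 5′ signal as covariate on the vertical axis; the dashed line marks equal values and red points are named genes. Peli2 lies just below the line, at -0.46 and -0.56, while Camk2a, at 0.38 and 0.03, and Vdac1, at -0.32 and -0.06, lie near 0 on the vertical axis.

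Markers of spiny neurons were mostly lower in L-dopa rats, and none was called. Of the genes common to both types, 22 of 24 were lower and 2 higher, with a median of -0.09. Of 9 D1 markers 7 were lower (median -0.21), and of 5 D2 markers all 5 (median -0.22). An unadjusted p under 0.05 was reached by 4, 3 and 2 of them, all lower, against 5.71% of all probe sets. With the covariate the medians were -0.05, -0.02 and -0.07 and no member reached it. These values depended on single rats in both directions. Without rat 22 they were -0.18, -0.32 and -0.31, and 13, 6 and 3 members reached that p on the lower side. In that fit 2933 of 18434 probe sets reached it in either direction, against 2381 with all rats. Without rat 9 the medians were -0.05, -0.14 and -0.18, and 1 member of each list reached it, the fewest of any omission. Over all probe sets 2194 did so without rat 9. The common list also came to 1 without rat 8, 11, 27 or 28, and the D2 list without rat 8, 10, 11, 24, 25, 27 or 28. With the covariate but without rat 22 the medians were -0.17, -0.10 and -0.22, with 8, 0 and 2 members lower at that p. In that fit 1491 of 18434 probe sets reached it in either direction. Genes typical of cortex were mostly higher, with a median of 0.46. With the mean of those cortex genes as covariate instead, a fit added after the data were seen, the medians were 0.01, -0.07 and -0.08.

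Tac1, the precursor of substance P, was 9.56, 9.97 and 10.55 in L-dopa rats, against 9.82, 10.67 and 10.98 in saline rats. The groups overlapped, and the difference of -0.47 ± 0.16 (limma adjusted p = 0.205) was -0.08 with the covariate. Pdyn, the dynorphin precursor, was 9.07, 9.89 and 10.25 in L-dopa rats and 9.47, 10.07 and 10.43 in saline rats. Its difference was -0.27 ± 0.13 (limma adjusted p = 0.385), with -0.64 at a dimmer probe set, and it was -0.06 with the covariate. Isl1, a transcription factor gene of D1 neurons, had -0.48 ± 0.18, and -0.25 with the covariate. Drd1 itself had -0.18 ± 0.11, which was 0.04 with the covariate and -0.28 without rat 22.

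On the D2 side, Penk was 11.86, 12.25 and 12.31 in L-dopa rats, against 12.02, 12.32 and 12.48 in saline rats, a difference of -0.10 ± 0.07 (limma adjusted p = 0.569). Drd2 had -0.11 ± 0.13, Adora2a, an adenosine receptor gene, -0.24 ± 0.12, Gpr6 -0.30 ± 0.15 and Ptprm, a receptor phosphatase, -0.22 ± 0.09. Among genes of both types, Arpp19, a phosphoprotein regulated by PKA, had -0.19 ± 0.07, Actn2 -0.27 ± 0.12 and the transcription factor gene Foxp2 -0.21 ± 0.10. With the covariate, Penk had -0.03, Drd2 -0.07, Adora2a -0.19, Gpr6 0.00, Ptprm -0.15, Arpp19 -0.06, Actn2 -0.12 and Foxp2 -0.01. Without rat 22, Drd2 had -0.23 and Adora2a -0.36, each more than 1.5 times its value with all rats. In lesioned rats conditioned with pramipexole, the medians of the D1, D2 and common lists were between -0.01 and 0.00.

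Cholinergic interneurons were represented by 5 tested genes, 4 of them lower, with a median of -0.19 (-0.08 with the covariate). Chat, the enzyme of acetylcholine synthesis, was 5.70, 6.03 and 6.50 in L-dopa rats, against 5.94, 6.58 and 6.63 in saline rats. The lowest saline rat was rat 22, and the difference was -0.46 ± 0.16 (limma adjusted p = 0.22). The choline transporter gene Slc5a7 had -0.39 ± 0.14, and with the covariate Chat and Slc5a7 had -0.38 and -0.24. Of 9 genes of GABA interneurons 5 were higher and 4 lower, with Nkx2-1, a transcription factor gene, at -0.30 ± 0.11. Their median was 0.023, and -0.002 with the covariate.

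Genes typical of cortex were the list with the largest median on the higher side: 17 of 19 were higher, 7 with an unadjusted p under 0.05, and the median was 0.46. With the covariate it was 0.25 and 1 member reached that p, but with the covariate and without rat 22 it was 0.51 and 8 did. Without a covariate it was 0.63 without rat 22 and 0.26 without rat 28, the ends of its range when 1 rat is left out. The number of members at that p was then 11 without rat 22 and 2 without rat 9, 27 or 28. With all rats, 7.21% of all probe sets reached it on the higher side, and 2381 of 18434 in either direction. That number was 2933 without rat 22, and 1491 with the covariate as well. Without rat 9, 27 or 28 it was 2194, 2072 and 2020. Neurod2 was 6.15, 6.99 and 7.29 in L-dopa rats, against 5.20, 5.71 and 6.86 in saline rats. The difference was 0.91 ± 0.24 (limma adjusted p = 0.125), and the highest saline rat was rat 22. The glutamate transporter gene Slc17a7 was 6.69, 7.00 and 7.85 in L-dopa rats and 5.63, 6.78 and 7.87 in saline rats, a difference of 0.71 ± 0.29. Rtn4r, the Nogo receptor gene, had 0.71 ± 0.30 and the pentraxin gene Nptx1 0.56 ± 0.21. With the covariate Neurod2, Slc17a7, Rtn4r and Nptx1 had 0.54, 0.47, 0.45 and 0.36. In rats conditioned with pramipexole the list's median was -0.04. With the list's mean as covariate, a fit added after the data were seen, limma called 0 probe sets, and 1837 had an unadjusted p under 0.05.

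Synaptic genes contained both directions. Of 31 glutamate receptor and postsynaptic genes 20 were higher, 7 with an unadjusted p under 0.05, and 1 of the 11 lower ones reached it. Over all probe sets, 7.21% reached it on the higher side and 5.71% on the lower side. The list's median was 0.03. Shank1 was 9.31, 9.71 and 10.18 in L-dopa rats, against 8.62, 9.13 and 10.08 in saline rats, with rat 22 highest among the saline rats. Its difference of 0.56 ± 0.18 was 0.21 with the covariate and 0.23 with the cortex list as covariate. Camk2a, the alpha subunit of CaM kinase II, had 0.38 ± 0.14 and the AMPA receptor gene Gria3 0.17 ± 0.07. With the covariate these were 0.03 and 0.09, and the list's median was -0.03.

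Of 14 GABA genes 5 were higher and 9 lower, with 3 and 2 of them at an unadjusted p under 0.05. Over all probe sets, 7.21% reached it on the higher side and 5.71% on the lower side. The list's median was -0.075, and 0.034 with the 3′ minus 5′ covariate. The GABA-B receptor gene Gabbr2 had 0.47 ± 0.17 and Gabra5, a subunit of GABA-A receptors, 0.35 ± 0.14. Gad2, which makes GABA, had -0.34 ± 0.16, and Abat is given above. With the 3′ minus 5′ covariate Gabbr2, Gabra5 and Gad2 had 0.32, 0.35 and -0.21. With the cortex list as covariate both receptor genes had 0.13. In rat 22 both had the highest signal of the saline group, 9.70 and 8.92.

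Genes that respond to neuronal activity and to L-dopa showed little. Of 22 immediate early genes 16 were higher and 6 lower, with a median of 0.11 (0.04 with the covariate). An unadjusted p under 0.05 was reached by 2, both higher, against 7.21% of all probe sets on that side. The 2 were Ier5, at 0.39 ± 0.16, and the orphan receptor gene Nr4a2, at 0.40 ± 0.18. Nr4a3 had 0.41 ± 0.24 and the neurotrophin gene Bdnf 0.37 ± 0.23. Fosb was 4.84, 5.06 and 5.41 in L-dopa rats, against 4.50, 5.24 and 5.46 in saline rats. Its difference was 0.01 ± 0.15, and its sign turned under several settings. This probe set is dim, with a mean of 5.10 against the filter of 5.

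Of 18 genes linked to L-dopa dyskinesia and ERK, 6 were higher and 12 lower, with a median of -0.04 (0.05 with the covariate). Cnr1, the CB1 cannabinoid receptor gene, had -0.26 ± 0.12 and was, with Pdyn, one of the 2 at an unadjusted p under 0.05. On the lower side 5.71% of all probe sets reached it. The 27 genes of striatal dopamine signalling held 10 higher and 17 lower, none at that p, with a median of -0.03 (-0.01 with the covariate). Among 18 neuropeptide genes and opioid receptors, the neurotensin gene Nts had -0.45 ± 0.20 and the nociceptin precursor gene Pnoc 0.43 ± 0.21, next to Tac1 and Pdyn above. This list's median was -0.05, and 0.10 with the covariate.

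The genes that carry and metabolise L-dopa and dopamine split in direction, 6 higher and 7 lower of 13. Both large neutral amino acid transporters were on the higher side. Slc7a5, which carries L-dopa across the blood-brain barrier, was 6.91, 6.98 and 7.30 in L-dopa rats, against 6.62, 6.83 and 6.96 in saline rats. Its difference was 0.29 ± 0.08 (limma adjusted p = 0.136), and 0.21 with the covariate. Slc7a8 was 6.27, 6.78 and 7.01 in L-dopa rats and 5.58, 6.19 and 6.74 in saline rats, a difference of 0.48 ± 0.16 (0.24 with the covariate). Ret, the receptor of GDNF-family factors, was 4.48, 4.92 and 5.31 in L-dopa rats, against 5.24, 5.49 and 6.07 in saline rats; this dim probe set had -0.70 ± 0.22 (limma adjusted p = 0.185) and -0.66 with the covariate. Qdpr, which regenerates the cofactor of tyrosine hydroxylase, had -0.22 ± 0.11.

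Oxidative phosphorylation genes were lower by small amounts. Of 53 tested, 40 were lower and 13 higher, 14 reached an unadjusted p under 0.05, all lower, against 5.71% of all probe sets, and the median was -0.045. When 1 rat was left out, the number at that p lay between 4, without rat 25, and 18, without rat 23. In those fits 1855 and 2436 of 18434 probe sets reached it in either direction. The list's median lay between -0.057, without rat 28, and -0.025, without rat 24. Sdha and Sdhb, the catalytic subunits of succinate dehydrogenase, had -0.14 ± 0.04 and -0.10 ± 0.04. Atp5pf, a subunit of ATP synthase, had -0.12 ± 0.04 and Ndufb10, of complex I, -0.14 ± 0.05. With the covariate none of the 53 was lower at that p and 1 was higher, and the median was -0.01. Of 29 chaperone and stress genes (unfolded protein response, heat shock) 24 were lower and 5 higher (median -0.065, and -0.015 with the covariate). The small heat shock gene Cryab had -0.41 ± 0.16, the chaperone gene Hspa5 -0.24 ± 0.11 and the disulfide isomerase gene Pdia3 -0.11 ± 0.06.

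Ribosomal protein genes lay around 0, with 15 of 24 higher, 9 lower and a median of 0.01. With the covariate 2 were higher and 22 lower, with a median of -0.06. Clock genes (11 higher and 9 lower of 20, median 0.04) and glucocorticoid-responsive genes (6 and 9 of 15, median -0.07) had 2 and 0 members at an unadjusted p under 0.05. Of all probe sets, 12.9% reached it. The medians of the clock and glucocorticoid lists were 0.025 and 0.007 with the covariate. Of 14 genes of interferon response and antigen presentation 4 were higher and 10 lower, with a median of -0.11 (-0.185 with the covariate). The interferon-induced genes Usp18 and Ifit2 had -0.61 ± 0.24 and -0.38 ± 0.18, and the peptide transporter gene Tap2 0.30 ± 0.15.

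**Figure D5:**
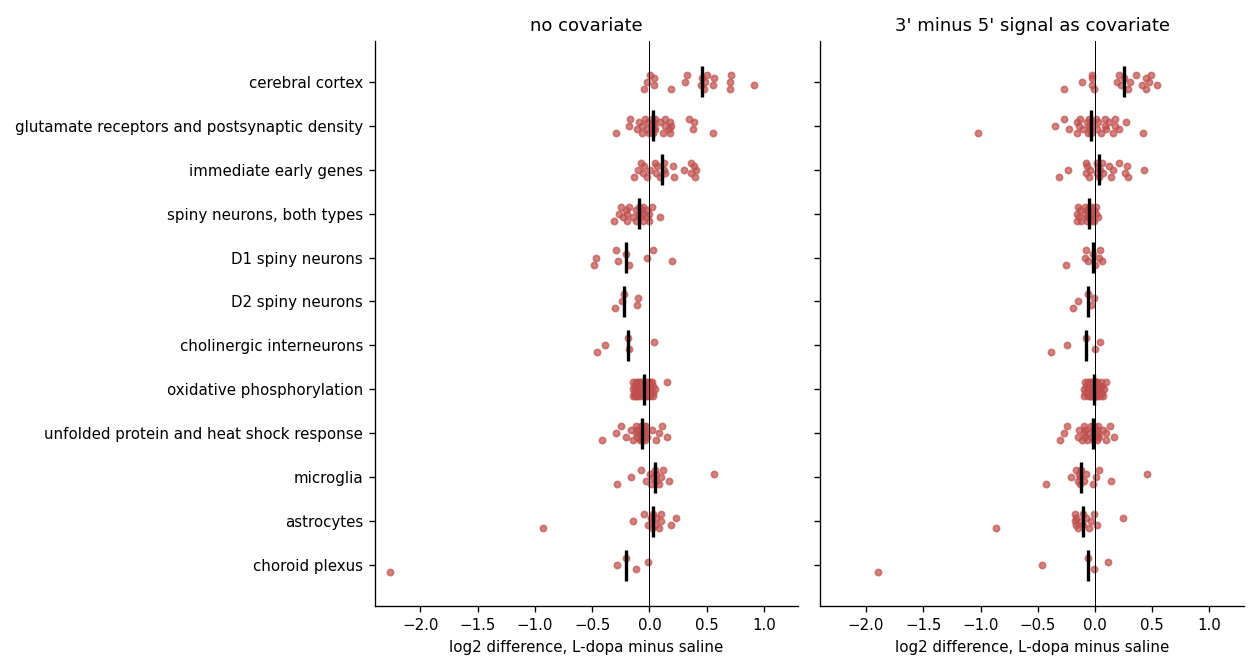
Log2 differences (L-dopa minus saline) of the members of 12 gene lists without a covariate (left) and with the 3′ minus 5′ signal as covariate (right); each point is 1 gene and the black line is the list's median. The cortex median is 0.46 on the left and 0.25 on the right, and the medians of the D1, D2 and common spiny neuron lists move from between -0.22 and -0.09 to between -0.07 and -0.02.

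Markers of other cells differed in few members. Of 15 astrocyte genes 11 were higher and 4 lower (median 0.03), but 13 of 15 were lower with the covariate (median -0.11). Agt, the angiotensinogen gene on this list, was 6.74, 7.21 and 7.60 in L-dopa rats, against 7.34, 8.24 and 8.42 in saline rats. The difference was -0.93 ± 0.27 (limma adjusted p = 0.156) and -0.86 with the covariate, while Cldn10 had 0.19 ± 0.08 and -0.04, and the bicarbonate transporter gene Slc4a4 -0.14 ± 0.06 and -0.15. Microglial genes had a median of 0.05, with 11 of 15 higher and none at an unadjusted p under 0.05. Oligodendrocyte genes had a median of -0.09, with 12 of 17 lower. With the covariate 11 of the 15 microglial genes were lower (median -0.12), and the oligodendrocyte median was -0.07. Of 18 genes of endothelial and mural cells 13 were higher and 5 lower (median 0.035), and of 10 genes of septum, thalamus and pallidum 8 and 2. With the covariate 4 of the 18 were higher and 14 lower (median -0.13), and of the 10 it was 7 and 3.

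Across all tested probe sets the largest difference was that of Ttr, the transthyretin gene of choroid plexus. It was 4.28, 5.07 and 5.37 in L-dopa rats, against 4.10, 7.24 and 10.88 in saline rats. The saline rats thus ranged widely and included the lowest value of all, and the difference of -2.26 ± 0.68 was not called (limma adjusted p = 0.159). All 5 tested genes of the choroid plexus list were lower, with Enpp2 at -0.21 ± 0.12 and Igfbp2 at -0.28 ± 0.25. Only Ttr among them had an unadjusted p under 0.05, which 5.71% of all probe sets reached on the lower side. The list's median was -0.21, and -0.06 with the covariate. Folr1, at -0.12 ± 0.22, and Aqp1, at -0.01 ± 0.22, differed by less than their SE. The summed unlogged signal of the list was 1189 to 1490 in L-dopa rats and 1344 to 3654 in saline rats. Enpp2, with a mean of 10.37, is the brightest of the 5 and weighs most in the sums of L-dopa rats. It was 10.04 to 10.39 in these rats, in which Ttr was 4.28 to 5.37. How much of the Enpp2 signal comes from choroid plexus was not tested. In rats conditioned with pramipexole the Ttr difference was 1.38, and its difference between the conditionings had an unadjusted p of 0.000435. Of 9 genes of the leptomeninges 6 were lower, among them the retinoid-binding protein gene Crabp2, at -0.38 ± 0.12, and Ogn, at -0.56 ± 0.25. The leptomeninges median was -0.10, and -0.22 with the covariate. The part of choroid plexus or meninges in other differences was not tested.

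In lesioned rats conditioned with pramipexole, which share no animals with this comparison, 0 probe sets were called for L-dopa against saline by limma, and 946 had an unadjusted p under 0.05 (5.13%). The difference between the conditionings was called for 0 probe sets as well, with 1298 at an unadjusted p under 0.05 (7.04%). Of the 2381 probe sets with an unadjusted p under 0.05 here, 1388 had the same sign there (58.3%), against 53.2% of all probe sets. These values are without the covariate. The 3′ minus 5′ signal of the pramipexole-conditioned lesioned rats averaged 1.06 with L-dopa and 0.96 with saline, a shift in the same direction. Its part in the shared signs was not tested. Deaf1 had 0.04 there, Rapgefl1 0.08, Csnk2a2 0.03 and Neurod2 0.11, and Hspa9 and Elovl5 had -0.04 and -0.10. Agt had 0.00 and Slc7a5 0.09. Of the 12 genes of smallest p on the higher side, 9 had the same sign there, and their values ran from -0.05 to 0.34. On the lower side it was also 9 of 12, with values from -0.19 to 0.12.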

How the data were processed

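Per the labels' protocols, 100 ng of total RNA from each rat was labelled with a 3′ IVT kit and hybridized to an Affymetrix Rat230_2 array. Per the submitters' processing notes, the authors made the deposited log2 signals with MAS5; its version is not given in the sources used here. No step was added to these values, and no detection calls were used.

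The groups were taken from the labels. Nothing says more of the replicates than that each is a rat of its own. All probe sets but 57 controls with a mean above 5 over the 14 arrays were tested, 18434 of 31042; of these 13501 carry 1 gene symbol in the platform annotation, 309 several and 4624 none. Differences came from limma 3.58.1 (R 4.3.3), with a mean for each of the 8 groups over all 56 arrays (48 residual degrees of freedom) and eBayes, two-sided, with Benjamini-Hochberg adjustment. The second fit added the 3′ minus 5′ signal as covariate. The pipeline was tested on simulated data. In lists, each gene stands by its probe set of highest mean. Lists are described by counts and medians, with no test.

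Named genes are the called ones, the 12 higher and 12 lower of smallest p (6 and 6 with the covariate), the 8 and 8 largest without overlap between groups, up to 4 per list, and Drd1, Drd2, Penk, Pdyn, Tac1, Fosb, Th and the Pellino genes; not all of these are printed. The comparison, the members and the lists were chosen with earlier results of these data known. Alternatives were other samples in the fit, filters, quantile normalization, an intensity trend, array weights, an offset, other covariates and leaving out each rat.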

Additional observations from a re-analysis of the deposited data

Results flagged for a closer look

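In 18 cases 1 rat lay far from the 6 others of its group for a gene named above; chance alone flags about 1 in 20 groups, and each named probe set has 2 groups. In saline rat 22 the signal was the lowest of its group for Isl1 (5.14), Ptprm (8.11), Adora2a (9.41), Chat (5.95) and Drd1 (10.25), and the highest for Traf3 (7.81). In L-dopa rats, rat 8 was lowest for Bptf (7.28) and Nt5c2 (6.87) and highest for Mgll (8.85). Rat 9 was lowest for 1371366_at (8.37) and Nts (6.25). Rat 10 was highest for Nkx2-1 (5.83), rat 12 lowest for Deaf1 (6.51) and Enpp2 (10.04), and rat 13 lowest for Slc20a2 (4.89). In saline rats, rat 25 was lowest for Grina (8.99) and highest for Plpbp (6.94). Rat 28 was highest for Slc4a4 (10.49).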

How the results depend on the processing

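The 3 calls did not hold under every setting. With the 28 lesioned rats in the fit or with quantile normalization 1 probe set was called, and with the 14 rats alone, with no filter or with the cortex list as covariate (added after the data were seen) 0 were called by limma. Leaving out 1 rat gave 0 to 78 calls, 78 without rat 22 and 0 to 7 otherwise, and 1834 to 2933 probe sets at an unadjusted p under 0.05. With the 3′ minus 5′ covariate, 0 were called in fits of the 28 lesioned rats or of the 14 rats alone or with beta-actin alone, at 925, 705 and 1085 with an unadjusted p under 0.05; leaving out 1 rat gave 0 to 1 and 860 to 1491. The 3′ minus 5′ difference stayed between 0.207 and 0.262 when 1 rat was left out. With the covariate, Cldn10 (-0.0368), Drd1 (0.0424), Fosb (-0.0817) and Peli3 (-0.0401) turned their sign, as did Drd2 with the cortex covariate (0.0922). Fosb also turned with quantile normalization (-0.0374) and array weights (-0.0214). When 1 rat was left out, Fosb ranged from -0.0905, without rat 22, to 0.0698, and Peli1 from -0.0307, without rat 13, to 0.0804. The cause of these turns was not tested. No paired analysis was possible because no rat number is shared between groups. Quantile normalization and the offset kept the sign of the median of every list named above except GABA interneurons (0.02 in the main fit, -0.02 with quantile normalization).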
